A study of Caenorhabditis elegans with 2 samples.

Results

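The genes described here make lipids, ceramides and cardiolipin in the nematode Caenorhabditis elegans: fatty acid synthases, desaturases, elongases and activating enzymes, the enzymes of sphingolipid base, ceramide, phosphatidylcholine, triacylglycerol and cardiolipin synthesis, and the regulator sbp-1. They were chosen by name, as 16 listed genes with every gene whose symbol begins with fat- (7 genes) or elo- (9 genes), which gave 32 of the 19973 protein-coding genes on the nuclear chromosomes. The question was whether NFYB-1, a subunit of the transcription factor NF-Y, sat at their promoters. The measurement was chromatin immunoprecipitation with sequencing, in 2 biological replicates of 1 group. Both replicates were whole worms of strain RW12190, in which nfyb-1 carries a TY1::EGFP::3xFLAG tag inserted at its own locus by CRISPR. They were synchronised by bleaching and starvation as first-stage larvae and taken as young adults at 65 hours, and the tagged protein was recovered with an antibody against GFP from chromatin sonicated to 200 to 800 bp. All samples carry the tag and all tissues are mixed, so a region bound in a few cells and one bound weakly in many cannot be told apart, and no condition can be set against another. A control experiment is mentioned in the labels and was not analysed here. Read depth is unknown.

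NF-Y is a complex of A, B and C subunits that recognises the CCAAT box in promoters. In animals many enzymes of fatty acid, sterol and phospholipid synthesis are controlled by SREBP, whose worm form is SBP-1, and in mammals SREBP sites often lie beside CCAAT boxes. Worms make their own polyunsaturated fatty acids, by alternating elongases and desaturases, and their own branched-chain fatty acids. They join fatty acids to a sphingoid base to make ceramide. Cardiolipin is the signature lipid of the inner mitochondrial membrane. Loss of NFYB-1 in worms has been linked to changes in mitochondrial function, prosaposin, ceramide and cardiolipin.

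In the conservative list of reproducible regions, 4 of the 32 genes had a summit from 500 bp upstream to 200 bp downstream of a transcript start, which is called bound here. That is 12.5% (exact 95% interval 3.51 to 29.0%, which covers counting error only), against 7.4% of all protein-coding genes. The bound genes were the elongase genes elo-1 and elo-2, the desaturase gene fat-6 and pmt-1, which encodes an enzyme of phosphatidylcholine synthesis. With 1000 bp upstream, acs-2, dgat-2 and hyl-1 joined them, giving 7 genes or 21.9% (interval 9.28 to 40.0%), against 9.6% of all genes. Both intervals hold the share of all genes. Since the genes were chosen with earlier results of these data known, no test of the list was made.

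The sequences around these 7 summits are shown for reading motifs, and fragments of 200 to 800 bp do not resolve the bases contacted. Each is from the RefSeq genome of WBcel235 (the same assembly as ce11), on the strand of its gene, and spans 100 bp either side of the summit, cut short at annotated untranslated exons at pmt-1 and dgat-2. Capitals mark the CCAAT motif (ATTGG when it runs on the opposite strand). They likewise mark TGATAA (opposite strand TTATCA). The last motif in capitals is CGCGC, which reads GCGCG on the opposite strand.
elo-1, chrIV:9526075-9526275, plus strand: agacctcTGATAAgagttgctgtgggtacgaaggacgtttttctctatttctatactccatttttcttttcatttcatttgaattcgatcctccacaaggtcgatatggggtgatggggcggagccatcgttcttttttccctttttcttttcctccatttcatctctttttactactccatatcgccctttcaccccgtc
elo-2, chrIV:17467412-17467612, minus strand: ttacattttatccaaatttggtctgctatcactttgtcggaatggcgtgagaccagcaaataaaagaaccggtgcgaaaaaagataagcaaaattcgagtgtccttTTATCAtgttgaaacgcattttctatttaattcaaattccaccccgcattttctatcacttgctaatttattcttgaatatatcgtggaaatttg
fat-6, chrIV:11915331-11915531, minus strand: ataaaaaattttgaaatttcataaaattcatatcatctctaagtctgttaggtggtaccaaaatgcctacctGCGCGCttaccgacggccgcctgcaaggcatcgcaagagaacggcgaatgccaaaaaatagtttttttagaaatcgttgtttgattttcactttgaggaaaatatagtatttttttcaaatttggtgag
pmt-1, chrII:5280105-5280275, minus strand: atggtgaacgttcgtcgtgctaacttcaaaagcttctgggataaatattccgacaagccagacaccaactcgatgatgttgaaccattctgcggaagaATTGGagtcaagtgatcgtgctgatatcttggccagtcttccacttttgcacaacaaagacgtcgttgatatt
acs-2, chrV:15566425-15566625, plus strand: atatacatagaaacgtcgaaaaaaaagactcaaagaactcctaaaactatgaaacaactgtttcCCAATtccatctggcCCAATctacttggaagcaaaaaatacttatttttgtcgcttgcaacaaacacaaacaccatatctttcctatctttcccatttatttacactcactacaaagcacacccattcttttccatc
dgat-2, chrV:17659386-17659545, plus strand: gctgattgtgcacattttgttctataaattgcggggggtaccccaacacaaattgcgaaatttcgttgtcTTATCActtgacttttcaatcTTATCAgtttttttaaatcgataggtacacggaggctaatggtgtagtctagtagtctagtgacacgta
hyl-1, chrIV:8538257-8538457, plus strand: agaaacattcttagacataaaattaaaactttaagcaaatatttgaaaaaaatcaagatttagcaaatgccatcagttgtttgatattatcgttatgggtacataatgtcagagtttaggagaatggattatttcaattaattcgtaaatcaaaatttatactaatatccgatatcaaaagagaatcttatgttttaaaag

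The CCAAT pentamer was at 2 of the 7 summits: once at pmt-1, in the coding exon, and 2 times at acs-2. Over all summits of the conservative list 36.9% had it within 100 bp, and over summits in promoter windows 30.8%. The 9-base pattern preferred by NF-Y (purine, purine, CCAAT, C or G, purine) was at none of the 7, against 8.38% of all summits and 4.55% of promoter summits. TGATAA, the core of GATA factor sites that are common in intestinal genes, was within 100 bp of 4 of the 7 summits (elo-1, elo-2, pmt-1 and dgat-2), against 14.7% of all summits. Its copy at pmt-1 lies in the part left out of the printed run. CGCGC was at fat-6 alone among the 7, against 25.3% of all summits. The windows of 201 bp held 24.4 to 42.3% G and C, all under the mean of 43.9% over all summits, and none of their 30-base stretches occurred elsewhere in the genome. All matches were sought on both strands, and CCAAT matches include those of the longer pattern.

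Elongases lengthen a fatty acid by a pair of carbons per cycle, and 2 of the 9 elongase genes were bound. At elo-1, which acts on the path to long polyunsaturated fatty acids, the region at chrIV:9525987-9526362 had its summit 191 bp upstream of the first start. Its signal, the caller's own value whose scale is not stated, was 51.0 in replicate 1 and 78.5 in replicate 2 (64.8 ± 19.4, SD, n = 2). The conservative list, made from both replicates together and on a larger scale, gave it 141, rank 1546 of 3890. By that signal it was the strongest region at any of the genes by either window, and replicate 2 was the higher library. In replicate 1 the regions at fat-6 (56.5), dgat-2 (55.5) and hyl-1 (54.5) were higher. The mean over the replicates at dgat-2, 64.7, was nearly the same as at elo-1. The summit also lay within 100 bp of 2 annotated RNA genes, F56H11.8 and F56H11.11, and their part in this signal was not tested. The neighbouring elongase gene elo-7 has the same summit as its nearest, 3772 bp upstream of its start.

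At elo-2, which extends palmitic acid, the region at chrIV:17467324-17467699 had its summit 104 bp upstream, between genes. Its signal was 49.3 in replicate 1 and 54.7 in replicate 2 (52.0 ± 3.85, SD, n = 2), and 96.6 in the conservative list, rank 3234. The replicates lay close together here, near the foot of the list. Summits also lay 400 bp and 610 bp downstream of the elo-2 start, in an intron and a coding exon. Both overlap a single region in each replicate, with signals of 46.3 in replicate 1 and 60.5 in replicate 2. In the conservative list they differ: the summit at 400 bp had 3.04, rank 3882 of 3890. The one at 610 bp had 122, rank 2068, ahead of the summit in the promoter window.

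The elongase gene elo-3 fell just outside the window. Its summit, in its own intron, lay 231 bp downstream of the start, 31 bp past the limit, with 48.6 in replicate 1 and 59.6 in replicate 2 (54.1 ± 7.76, SD, n = 2). Those levels are close to those at elo-2, so in the conservative list the line between them is one of position. In each replicate's own ranked list the summit of this region lay inside the window, so the same values are its window signals below. The branched-chain elongase genes elo-5 and elo-6 shared a nearest summit in a coding exon of F41H10.3, 3051 and 14493 bp from their starts. For elo-4, elo-8 and elo-9 the nearest summits were 7568, 11534 and 40568 bp away. The elo-8 start lies 351 bp from the end of a gene on the same strand.

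Desaturases place double bonds in the chain, and 1 of the 7 genes was bound. At fat-6, a stearoyl-CoA desaturase gene, the region at chrIV:11915243-11915618 had its summit in the first intron, 256 bp downstream of the first start and 264 bp upstream of an internal start. The signal was 56.5 in replicate 1 and 46.6 in replicate 2 (51.5 ± 7.03, SD, n = 2), and 110 in the conservative list, rank 2604. Neither replicate's own calls ranked this region reproducibly by its irreproducible discovery rate (IDR), which is low where the ranks of a region repeat. The IDR was 0.728 in replicate 1 and 0.214 in replicate 2, against 0.00715 in the conservative list, whose limit is 0.01. Of the other regions in the windows, acs-2 had 0.664 in replicate 2, and pmt-1 and dgat-2 had 0.269 and 0.261 in replicate 1. Those at elo-1, elo-2 and hyl-1 were at most 0.0871 in either replicate. A stronger summit lay past the 3′ end of fat-6, 2258 bp downstream of the first start, with 74.8 and 72.3 in replicates 1 and 2 (73.5 ± 1.76, SD, n = 2), and that region was in both replicates' own lists. The closely related stearoyl-CoA desaturase gene fat-7 had its nearest summit 10292 bp away.

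**Figure D1:**
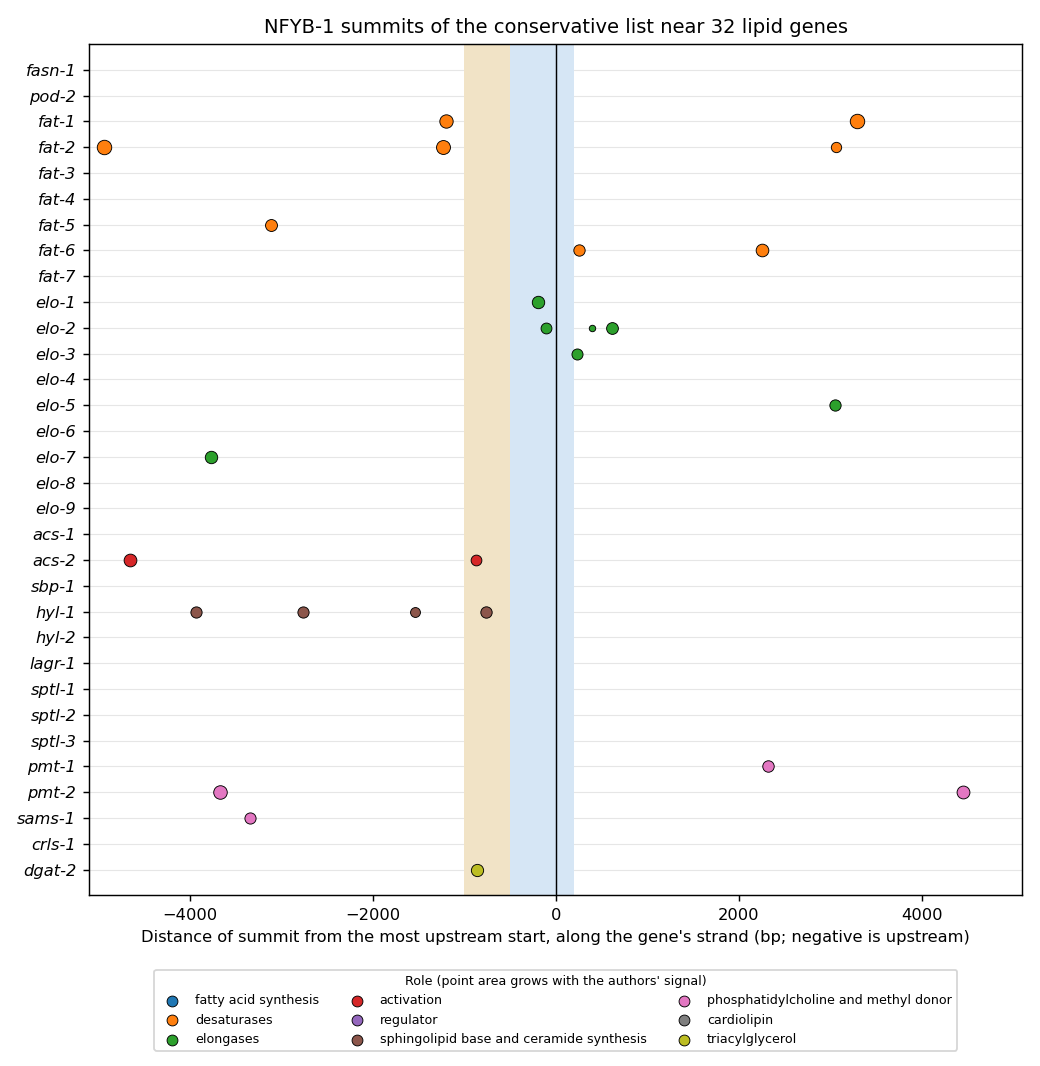
Each row is a gene and each point a summit of the conservative list, at its distance in bp from the gene's most upstream start along its strand; blue shading marks the 500 bp window, tan its extension to 1000 bp, and point area grows with the authors' signal. The shading is set by the most upstream start only, while bound calls use any annotated start. The bound genes fat-6 and pmt-1 therefore have their summits outside it. Points within the shading are few, while fat-1, fat-2, hyl-1 and pmt-2 have further summits 1199 to 4939 bp away.

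The strongest summits near the desaturase genes stood outside the promoter windows, around the neighbouring genes fat-1 and fat-2. FAT-2 makes linoleic acid from oleic acid, and FAT-1 places a double bond near the methyl end of the chain. There were 4 summits between 5000 bp before fat-1 and the 3′ side of fat-2. One lay 1199 bp upstream of fat-1, with 61.6 in replicate 1 and 95.5 in replicate 2. The next lay 3290 bp downstream of the fat-1 start, just past its 3′ end, with 97.2 in replicate 1 and 122 in replicate 2. The third lay 1229 bp upstream of fat-2, with 85.1 in replicate 1 and 107 in replicate 2. These 3 regions ranked 1066, 730 and 876 of 3890, ahead of all 7 regions in the windows, and all were in both replicates' own lists. The fourth, 3062 bp downstream of the first fat-2 start, was weaker, at 41.3 in replicate 1 and 57.0 in replicate 2. By contrast fat-3 and fat-4, neighbours that make long polyunsaturated fatty acids, had their nearest conservative summit 63845 and 60251 bp from a start, the farthest of all the genes. The nearest summit to fat-5, a palmitoyl-CoA desaturase gene, lay 3108 bp upstream.

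Among the genes for phosphatidylcholine and its methyl donor, 1 of 3 was bound. PMT-1 adds the first methyl group to phosphoethanolamine, and its region at chrII:5280017-5280392 had its summit in a coding exon, 74 bp downstream of an internal start but 2318 bp downstream of the first one. The signal was 43.8 in replicate 1 and 60.1 in replicate 2 (52.0 ± 11.5, SD, n = 2), and 113 in the conservative list, rank 2435. Whether the internal start is used in these worms was not measured. If only the most upstream start of each gene is counted, pmt-1 and fat-6 drop out and 2 of the 32 genes (6.25%) remain, against 6.7% of all genes.

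The gene pmt-2, which adds the later methyl groups, was not bound, but summits lay 3672 bp upstream and 4451 bp downstream of its start. That start lies 40 bp from the end of a gene on the same strand, and whether pmt-2 is transcribed from its own promoter was not tested. The upstream region, in an intron of the neighbouring gene sumv-2, had 95.5 in replicate 1 and 117 in replicate 2 (106 ± 15.5, SD, n = 2) and held 2 copies of the 9-base CCAAT pattern. The downstream one, in an intron of pmt-2, had 77.2 in replicate 1 and 78.2 in replicate 2 and held no CCAAT. Both were in both replicates' lists. The methyl donor gene sams-1, an S-adenosylmethionine synthetase, had its nearest summit 3338 bp upstream, with 45.4 in replicate 1 and 49.4 in replicate 2.

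**Figure D2:**
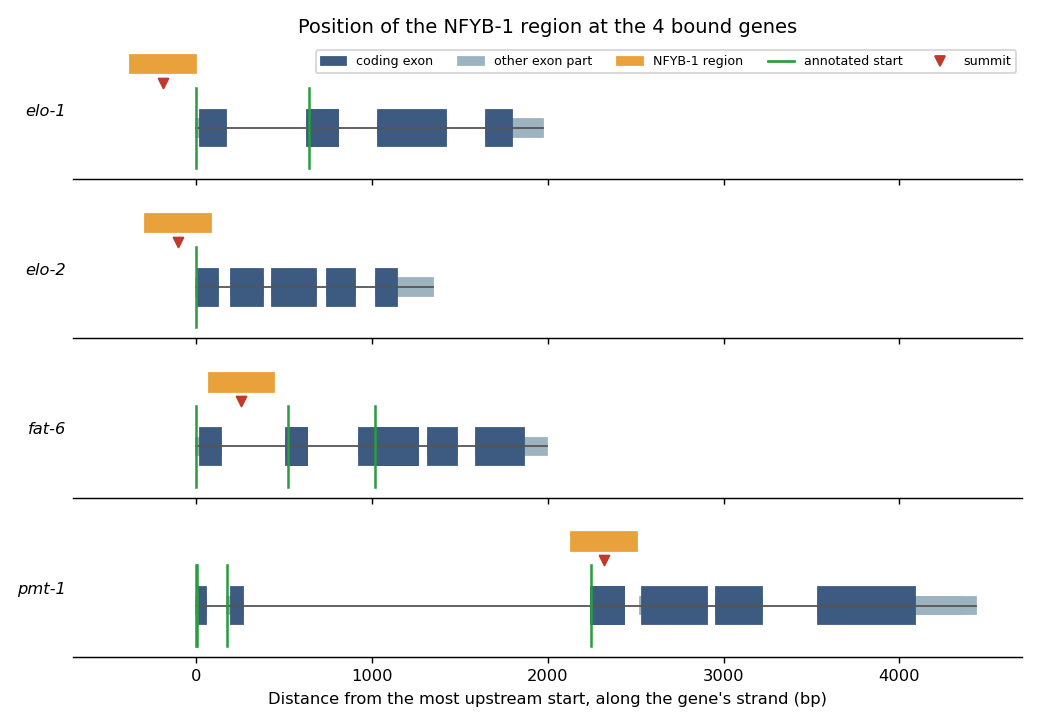
Gene models of elo-1, elo-2, fat-6 and pmt-1 drawn to scale, with distance in bp from the most upstream start on the horizontal axis, coding exons in dark blue, annotated starts in green, the NFYB-1 region in orange and its summit as a red triangle. The summits of elo-1 and elo-2 lie upstream of the whole gene, that of fat-6 lies in the first intron and that of pmt-1 in a coding exon at an internal start.

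None of the 6 genes of sphingolipid base and ceramide synthesis was bound within 500 bp. Serine palmitoyltransferase, encoded by sptl-1, sptl-2 and sptl-3, opens the pathway, and the nearest summits to these genes were 26792, 5011 and 14450 bp away. Of the ceramide synthase genes, hyl-1 had a summit 766 bp upstream, with 54.5 in replicate 1 and 69.2 in replicate 2 (61.9 ± 10.4, SD, n = 2). It was 1 of 4 summits in a row upstream of hyl-1, the other three lying 1539, 2759 and 3926 bp away within pkg-2, a neighbouring gene. The ceramide synthase gene hyl-2 and its relative lagr-1 had their nearest summits 7658 and 24525 bp away.

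The cardiolipin synthase gene crls-1 was not bound in the conservative list. Its nearest summit there was 20514 bp away. A region at chrIII:909642-910017, with its summit in the gene's own coding sequence 35 bp upstream of its second start, was nevertheless ranked in the series, with a signal of 33.6 in replicate 1 and 59.7 in replicate 2 (46.6 ± 18.4, SD, n = 2). Its IDR of 0.0277 missed the limit of 0.01 in the conservative comparison. The same region is in the other thresholded list of the series, so the call at crls-1 depends on which of the authors' lists is read. That other list bound 3 of the 32 genes, crls-1, elo-1 and elo-2, which is 9.38%, against 7.56% of all genes. The crls-1 start lies 54 bp from the end of F23H11.5, a gene on the same strand, and no CCAAT was within 100 bp of the summit.

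The remaining roles had few genes. Neither pod-2, the acetyl-CoA carboxylase that makes malonyl-CoA, nor fasn-1, the fatty acid synthase, was bound, and the nearest summit to fasn-1 was 16321 bp away. The nearest summit to pod-2 lay in its own coding exon 2737 bp from a start and was low, at 41.9 in replicate 1 and 56.5 in replicate 2. The acyl-CoA synthetase gene acs-2, which prepares fatty acids for oxidation, had its summit 869 bp upstream. It ranked 3356 in the conservative list, with 51.0 in replicate 1 and 48.2 in replicate 2 (49.6 ± 1.95, SD, n = 2). The RNA gene linc-108 lies within 100 bp of that summit, and its part in the signal was not tested. A further acs-2 summit lay 4651 bp upstream, with 85.3 in replicate 1 and 71.0 in replicate 2, and held the 9-base pattern. The nearest summit to acs-1, which activates a branched-chain fatty acid, was 7841 bp away. At dgat-2, whose product completes triacylglycerol, the summit lay 858 bp upstream, with 55.5 in replicate 1 and 73.9 in replicate 2 (64.7 ± 13.0, SD, n = 2). That summit is only 60 bp upstream of another gene, fbxa-108, so its assignment to dgat-2 is uncertain. The nearest summit to the regulator gene sbp-1 was 21425 bp away, within bed-2.

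The 9-base CCAAT pattern did occur in promoters of these genes, without a bound call. It was found in the window of 500 bp upstream to 200 bp downstream of the first start in 3 of 32 genes (9.38%), against 6.55% of all genes. These were sbp-1, in a coding exon 53 bp downstream, sptl-1, in a coding exon 176 bp downstream, and fat-3, 486 bp upstream. They are shown beside the boxes under summits near pmt-2 and acs-2 and at the bound saposin gene spp-2, so that letters with and without a bound call can be compared. Over all genes, 9.70% of those with the pattern in this window were bound and 7.24% of those without it. Capitals mark the 9 bases, each printed on the strand that reads CCAAT, from RefSeq WBcel235.
sbp-1, not bound, chrIII:11442499-11442527, plus strand: ccaattttgtGACCAATGAgagaaacgga
sptl-1, not bound, chrII:51814-51842, minus strand: gtgtttcaggAACCAATGGttccggagtc
fat-3, not bound, chrIV:9802523-9802551, minus strand: ttgaaagaaaAACCAATCGcttcgagacc
pmt-2, upstream summit, chrV:4624891-4624919, plus strand: agaactgcaaGACCAATCAggcggagtgg
pmt-2, upstream summit, chrV:4624927-4624955, minus strand: gccattttctAACCAATCAgcatcttcga
acs-2, upstream summit, chrV:15562748-15562776, minus strand: tctttggcttGACCAATCAgtgacgctga
spp-2, bound, chrX:7316843-7316871, minus strand: cttgaaaactAACCAATCAtaaacaatca

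The other motifs of these promoters are given as descriptions. CCAAT itself was in 20 of 32 promoters (62.5%), against 77.8% of all. TGATAA was in 22 (68.8%), against 53.8%. CACGTG, a site of basic helix-loop-helix factors, was in 6 (18.8%), against 12.1%. TCACNCCAC, a sterol regulatory element of mammalian SREBP targets, was in elo-5 and fat-5 only (6.25%), against 1.2% of all promoters. CGCGC was in 6 (18.8%), against 26.0%. The counts of the rarer motifs are too small to tell the list from all genes.

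Each replicate taken alone bound almost none of these genes. In the list of replicate 1, 0 of 32 were bound, with an upper 95% limit of 10.9%, against 3.66% of all genes. In the list of replicate 2, only elo-1 was bound (3.13%), against 5.1% of all genes. None of the 7 regions in the windows overlapped the list of replicate 1, and those at elo-1 and dgat-2 overlapped that of replicate 2. For comparison, of the 1363 conservative regions in any gene's window, 43.7% overlapped the list of replicate 1, and 57.7% overlapped that of replicate 2. The 4 regions in the narrower windows had a median signal of 111 in the conservative list, against 133 for all 1363, and 1 of them lay above the median of the whole list, 126.

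**Figure D3:**
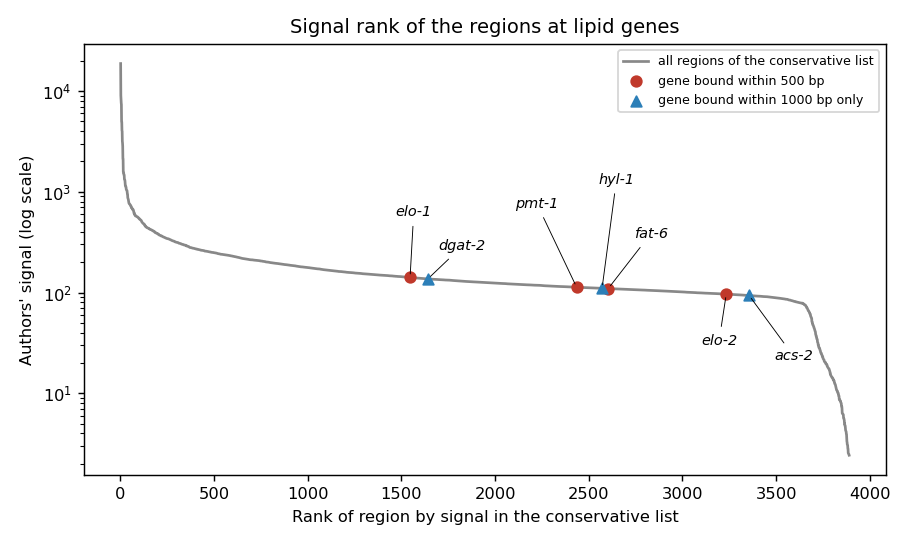
Authors' signal (log scale) against signal rank for all 3890 regions of the conservative list (grey line), with the regions at genes bound within 500 bp as red circles and those bound within 1000 bp only as blue triangles. The 7 regions lie between ranks 1546 and 3356, on the flat part of the curve, and 2 of them lie above the median signal of the list.

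Below the thresholds, most of these promoters held a weak ranked region. In replicate 1, 25 of 32 genes (78.1%) had a region of the full ranked list in the 500 bp window, against 39.0% of all genes. In replicate 2, 26 (81.3%) had one, against 49.8%. The genes have more annotated starts than most, 1.88 on average against 1.47 over all genes, which widens their windows. Counting the most upstream start alone, the shares were 71.9% in replicate 1 and 78.1% in replicate 2, against 35.2% and 46.3% of all genes. Among genes with a region, signals were close to those of other genes: the median was 34.1 in replicate 1 (range 7.26 to 60.0) against 29.3 over all genes, and 32.8 in replicate 2 (range 2.94 to 78.5) against 29.4. None of the genes reached the median of thresholded promoter regions, 90.6 in replicate 1 and 93.0 in replicate 2.

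The 5 genes sbp-1, lagr-1, elo-4, elo-7 and elo-8 had no ranked region in either replicate. Outside the bound genes, the highest means over the replicates were at elo-3, crls-1, pod-2, hyl-1 and elo-5, an order that neither replicate gave alone. At hyl-1 the window held 60.0 in replicate 1 and 29.4 in replicate 2, and at elo-5 it held 22.3 and 64.2, so the replicates put them in opposite order. Of 24 genes with a region in both replicates, 14 were higher in replicate 2 and 10 in replicate 1. Genes at large leaned the same way. As a log2 fold, replicate 2 typically exceeded replicate 1 by 0.175 (median) across all 6375 such genes. For these 24 genes the median was 0.223. The largest ratio among the 24 was 3.41, at fat-5, with 46.6 in replicate 1 and 13.6 in replicate 2. Nearly as far apart, in the other direction, was sams-1, with 7.26 in replicate 1 and 24.8 in replicate 2. Such values need not be of the same region. At fat-5 the replicate 2 region overlapping the series' ranked region had 19.9. Across these 24 genes the Spearman correlation of the replicates was 0.305, against 0.656 across all 6375 genes with both; genes in one library share its depth and background, so neither value carries a p.

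**Figure D4:**
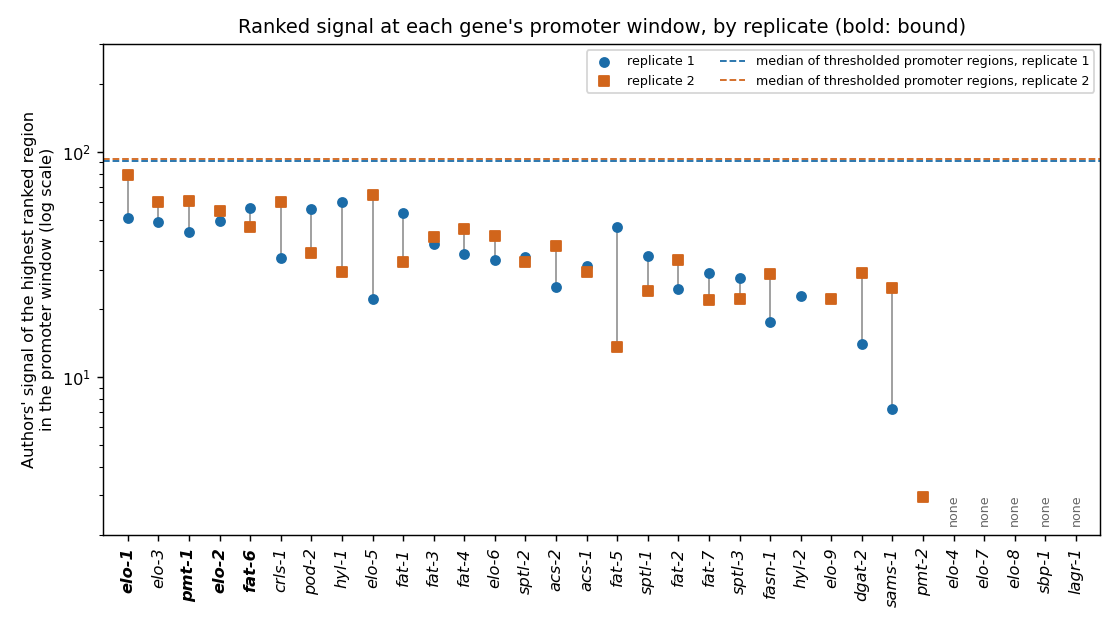
Authors' signal (log scale) of the highest ranked region in each gene's 500 bp window, with replicate 1 as circles, replicate 2 as squares and dashed lines at the median of thresholded promoter regions of each replicate (90.6 and 93.0). All points lie under the lines, genes run from left to right by the mean of the replicates, and 5 genes have no region in either replicate.

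A looser IDR limit of 0.05 in the series' ranked list, chosen after seeing the data, raised the count to 9 of 32 genes (28.1%, exact 95% interval 13.7 to 46.7%), against 11.3% of all genes. This interval lies above the share of all genes, unlike those at the authors' limit, and it is a description, since the limit and the genes were chosen with values known. Any annotated start counts here. The regions at pod-2, fat-4, pmt-1 and fat-6 lay at internal starts, outside the window of the first start. A count by the first start alone was not computed at this limit. The added genes were crls-1, pod-2, elo-6, fat-3 and fat-4. Their IDR ran from 0.0277 at crls-1 to 0.0446 at pod-2, and the replicates gave fat-3 39.0 and 42.0, and elo-6 32.9 and 42.3, as the highest signals in their windows. In the calls of replicates 1 and 2 alone, the IDR was 0.733 and 0.231 at pod-2 and 0.697 and 0.268 at fat-4. It was 0.201 and 0.220 at fat-3, 0.537 and 0.0335 at elo-6, and 0.399 and 0.0173 at crls-1.

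Distances to the nearest summit were also shorter than for genes at large. The median was 4391.5 bp over the 32 genes, against 12320 bp over all genes. Each distance is to the nearest of a gene's annotated starts. These genes have more starts, 1.88 on average against 1.47, which shortens their distances. By the first start alone, pmt-1 goes from 74 to 2318 bp and pod-2 from 2737 to 9888 bp. By that measure 15 of the 32 genes had a summit within 5000 bp, and the share of all genes was not computed. Shares within fixed distances gave the same order: 9 genes (28.1%) had a summit within 1000 bp of a start, against 11.4% of all genes, 16 (50%) within 5000 bp, against 29.0%, and 20 (62.5%) within 10000 bp, against 44.5%. Neighbouring genes share a nearest summit, as at fat-3 and fat-4, elo-1 and elo-7, and elo-5 and elo-6, so these are not independent counts. By chromosome, 12 of the 32 genes and 3 of the 4 bound ones lie on IV, where 7.35% of all genes were bound.

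Related lipid genes outside the list were bound in varied shares. In 10 lists of lipid genes, leaving out the 32, 24 of 198 genes (12.1%) were bound within 500 bp, against 7.4% of all genes, and 33 (16.7%) within 1000 bp, against 9.6%. The counts by list that follow also leave out the 32. Transcription regulators of lipid metabolism had 6 of 20 bound. At nhr-68, a nuclear receptor gene of propionate metabolism, the signal was 118 in replicate 1 and 187 in replicate 2 (152 ± 49, SD, n = 2), with another gene, H12C20.7, nearer to the summit. At nhr-49, a receptor that controls fat desaturation and oxidation, it was 101 in replicate 1 and 115 in replicate 2 (108 ± 10.2, SD, n = 2). The regulators hlh-11, nhr-8, nhr-66 and mxl-3 were the other bound ones.

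Enzymes of other lipid branches followed. In the mevalonate pathway 2 of 6 genes were bound, hmgs-1, the synthase of its early step, with 111 in replicate 1 and 112 in replicate 2, and mvk-1. The hmgs-1 summit, 168 bp upstream of that gene, is nearer to a start of F25B4.4, so its assignment is uncertain. Of the glycerophospholipid and cardiolipin genes 4 of 39 were bound, led by pcyt-2.1, a gene of phosphatidylethanolamine synthesis, where RNA genes also lie at the summit, with 149 in replicate 1 and 170 in replicate 2. In sphingolipid metabolism it was 1 of 20, the sphingomyelin synthase gene sms-3, with 81.7 in replicate 1 and 110 in replicate 2. Saposin-like genes gave 2 of 9, spp-2 and spp-3, which adjoin each other, and spp-2 had 75.0 in replicate 1 and 109 in replicate 2. In fatty acid oxidation 3 of 39 genes (7.69%) were bound, close to the 7.4% of all genes, and among acyl-CoA synthetases and binding proteins 2 of 24. The other lists had 2 of 11 in elongation and malonyl-CoA supply, 2 of 20 in triacylglycerol storage, and 1 of 13 in methyl donor metabolism.

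**Figure D5:**
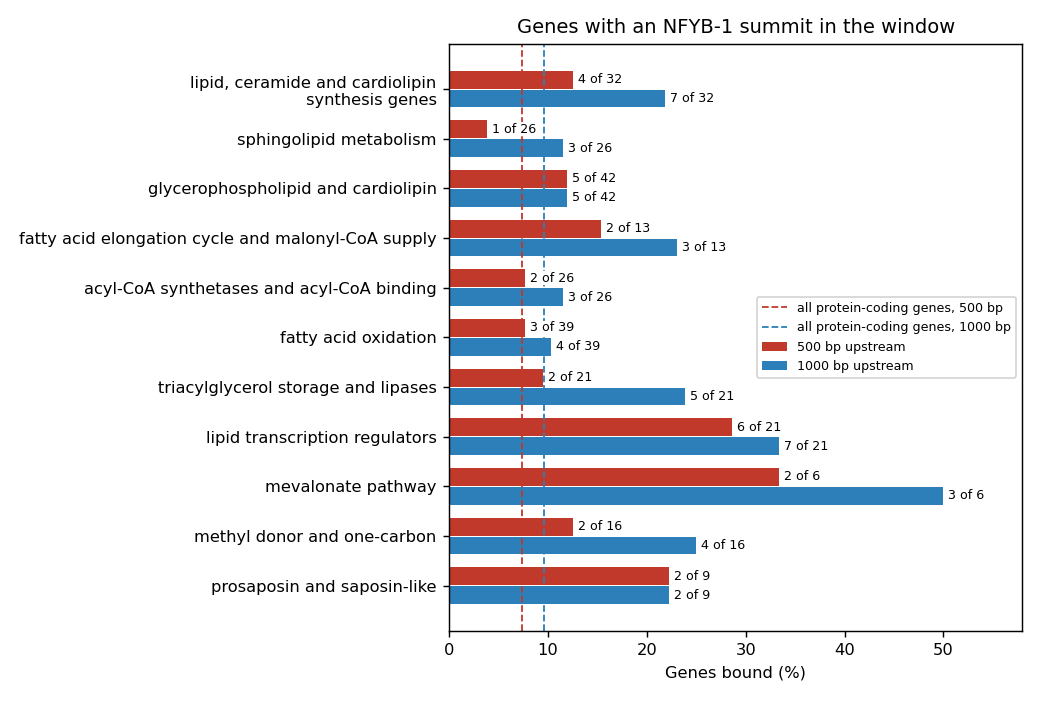
Percent of genes bound within 500 bp (red) and 1000 bp (blue) for the 32 genes and 10 lists of related genes, with counts beside the bars and dashed lines at the shares of all protein-coding genes (7.4% and 9.6%). Lists are drawn whole, so they share some genes with each other and with the 32, and the regulator, mevalonate and saposin lists have the longest red bars.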

How the data were processed

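Per the labels and the deposited description files, the authors called regions on ce11 for each replicate and for both replicates together, with a control, and compared them by IDR. Which aligner and peak caller made them is not given in the sources used here. In each list the score deposited by the authors is the scaled IDR (at least 830 in the conservative list), the −log10 values deposited in the ranked lists are of the global IDR, and the deposited signal is the caller's value per region, with no stated scale. The authors' signal was used to describe and rank regions within a list. It was also set side by side between the replicates' lists, as means, SDs, ratios and correlations, without scaling. Depth is unknown.

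Gene starts were those of protein-coding transcripts in Ensembl release 115 (WBcel235) on 6 nuclear chromosomes, which hold 3879 of the 3890 conservative regions. Coordinates are 1-based. Replicate values at a region are those of the overlapping ranked region with the nearest summit, and each gene's ranked signal is the highest in its window. Window and motif searches were tested on simulated sequence. Intervals are exact (Clopper-Pearson). Python 3.11.15, numpy 2.4.6, pandas 2.3.3 and scipy 1.17.1 were used. With 2 replicates of 1 group, no test was made. The genes, lists and rules were chosen with earlier results of these data known. All 32 genes are named; from each wider list up to 4 bound genes of highest signal could be given with values.

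Alternatives were the other thresholded list, each replicate's list, stricter IDR, other windows and other start annotations. Mitochondrial regions were kept in the ranks, median signal and rank curve of the conservative list, and were left out of the windows and motif shares. The second ranked list was not used.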

Additional observations from a re-analysis of the deposited data

How the results depend on the processing

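Of 33 alternatives, 15 left their result within 1.5 times its value or within 1 SD, and 18 moved it. Shares in parentheses are of all genes under the same rule. The count of 4 genes bound within 500 bp went to 0 to 1 with a single replicate's list (3.66% and 5.1%), 0 with regions in both replicates' lists (3.03%), 0 at an IDR of 0.001 (3.78%), 2 with the most upstream start only (6.7%), 7 with 1000 bp (9.6%) and 9 at an IDR of 0.05 (11.3%). With shares of about 3 to 5% in 32 genes, a count of 0 or 1 is near the background. The other list gave 3 genes (7.56%), windows of 250 and 100 bp 3 (4.56%), region overlap 5, with elo-3 (8.76%), all transcripts 4 (7.41%), RefSeq starts 4 (6.7%), and leaving out summits within 100 bp of RNA genes 3, without elo-1 (6.41%). The alternatives on all transcripts, RefSeq starts, RNA genes and an IDR of 0.05 were chosen after seeing the data. The count of 7 within 1000 bp went to 0 to 2 with a single replicate's list (4.84% and 6.51%). The 1 CCAAT at summits within 500 bp and the 3 roles with a bound gene were each 0 with regions in both lists and 0 at an IDR of 0.001, by construction, since no gene is bound there, as in the list of replicate 1. CCAAT was 0 in the other list and 0 to 0 with single replicates, and the roles were 0 to 1. A single replicate's list holds fewer regions. No paired analysis was possible because there was 1 group. The unknown depth limits all absences.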
